A study of Mus musculus with 2 samples.

Results

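The 10 genes described here encode a ligand of the fibroblast growth factor (FGF) pathway, 2 of its receptors and 7 feedback or response genes of the ERK cascade. They are Fgf4, Fgfr1, Fgfr2, Dusp6, Dusp4, Spry2, Spry4, Etv4, Etv5 and Egr1. Their rows were taken by symbol from a table of 30774 gene identifiers, in which each symbol had 1 row. Biotin-labelled material from total RNA of mouse embryonic stem cells (mESCs) was hybridized to Illumina beadchips, on which the brightness of beads carrying gene probes (signal intensity, in arbitrary units) reports RNA abundance. The labels describe the cells as B6 (C57BL/6) mESCs of inner cell mass origin, from the E3.5 embryo. The control culture grew in serum medium supplied with LIF, a cytokine acting through Stat3 and also through PI3K–AKT and MAPK signaling. The other culture received LIF plus CHIR99021 (CHIR), a GSK3 inhibitor that activates Wnt/β-catenin signaling. A treatment of 12 h is recorded for each of the cultures. Both cultures thus had serum and LIF, no inhibitor of MEK is named for either of them, and the dose of CHIR on the arrays is not given in the sources used here. There was 1 array per condition, so differences between cultures of the same kind are unknown and none of the differences below could be tested.

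In mESCs the FGF–ERK pathway is largely autocrine. Fgf4 is made by the pluripotent cells themselves, under control of Oct4 and Sox2. It binds Fgfr1 and Fgfr2, and the signal passes through Ras, Raf, MEK and ERK. ERK activity primes mESCs to leave the naïve state, which is why the 2i medium joins CHIR with a MEK inhibitor. Active ERK also induces its own brakes, the Sprouty proteins and the dual specificity phosphatases, and the ETS-family transcription factors Etv4 and Etv5. RNA levels of these feedback genes are therefore often read as a gauge of pathway output.

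Background-subtracted signals had a median of 10.5 in LIF and 10.4 with CHIR, and 9021 and 9174 identifiers were detected, meaning that the signal exceeded the negative control beads with a detection p-value under 0.01. Axin2, a feedback target of Wnt/β-catenin signaling, had a signal of 314.1 in LIF and 1178 with CHIR. Of 10 marker genes of mESCs, 8 were detected on both arrays. Sox2 and Tdgf1 were the other two. Of 8 markers of feeder cells or fibroblasts, 0 were detected, and their summed signal was 293.6 in LIF and 298.4 with CHIR, most of it from Thy1 (222.3 and 225.3), which was taken as measured by several probes.

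Fgf4 was the member whose signal changed by more than 1.5-fold among those that were detected, and it was lower with CHIR. The detected feedback genes differed by less than 1.5-fold between the arrays. Of the 10 genes, 7 were detected on both arrays, namely Fgf4, Dusp6, Dusp4, Spry4, Etv4, Etv5 and Egr1, and 3 (Fgfr1, Fgfr2 and Spry2) on neither. Among the 7, CHIR went with a signal lower by 1.5-fold or more for 1 gene and higher by as much for 0. Over all 9615 identifiers detected on at least 1 array, 3.16% were lower by 1.5-fold or more and 3% higher by as much, so 1 in 7 is a count that says little about the group. The signal was lower with CHIR for 5 of the 7 and higher for 2, against 50.8% lower and 49.2% higher over all of these identifiers. The median log2 fold change of LIF plus CHIR over LIF was -0.21 for the 7 genes and 0.00 for all identifiers detected on at least 1 array.

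**Figure D1:**
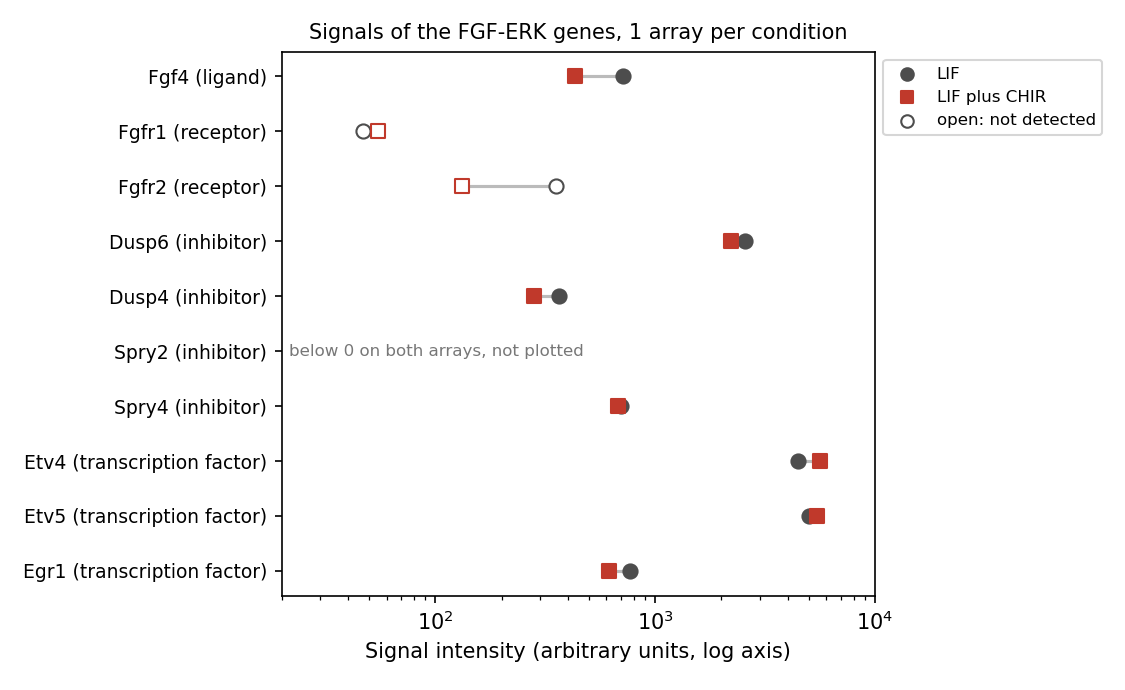
Signal intensity (arbitrary units, log axis) of each gene on the LIF array (circles) and the LIF plus CHIR array (squares), with open symbols for genes not detected at a detection p-value of 0.01. Fgf4 moves from 712.7 to 430.1 and Fgfr2, which was not detected, from 354.8 to 132.3, while the pairs of symbols of Spry4 and Etv5 nearly coincide; Spry2 lay below 0 on both arrays and is not plotted.

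Fgf4 (Entrez gene 14175, cytoband 7qF5 in the array annotation) is the ligand through which mESCs stimulate their own FGF receptors. Its signal was 712.7 in LIF and 430.1 with CHIR, with a detection p-value of 0 on each array, so that no negative control was as bright. In such bulk RNA, fewer cells that make Fgf4 and less Fgf4 RNA per cell cannot be told apart. The signal with CHIR was 60.3% of that in LIF, a 1.66-fold lower value (log2 fold change -0.73). On its own array Fgf4 stood at percentile 86.6 of all identifiers in LIF and at 82.7 with CHIR. Among 2339 detected identifiers whose brighter signal lay between 300 and 1000, as that of Fgf4 did, 43 (1.84%, Fgf4 included) were lower by as much or more, and 2.61% were lower by at least 1.5-fold. The change thus lies toward the edge of what these arrays show at that brightness, without a second array to say how often cultures differ that far.

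The promoter of Fgf4 is shown because Fgf4 was the detected member past the limit, and that of Etv5 because it carries the same short letters and its signal did not move past the limit. Both are RefSeq sequences of assembly GRCm38.p6 and run from 250 bases before the start of the gene to 50 bases within it, on the strand of the gene. That of Fgf4 is chr7:144861136-144861435 on the plus strand, and that of Etv5, the first of its start sites in the table, is chr16:22439521-22439820 on the minus strand. Capitals mark the GC box GGGCGG, the letters bound by the Sp family, to which Sp5 belongs.
Fgf4: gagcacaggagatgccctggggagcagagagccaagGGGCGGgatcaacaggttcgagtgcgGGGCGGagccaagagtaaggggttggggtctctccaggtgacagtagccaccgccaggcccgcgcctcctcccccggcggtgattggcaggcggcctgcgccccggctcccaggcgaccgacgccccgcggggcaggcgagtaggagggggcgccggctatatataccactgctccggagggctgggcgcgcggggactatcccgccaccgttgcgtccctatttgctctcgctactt
Etv5: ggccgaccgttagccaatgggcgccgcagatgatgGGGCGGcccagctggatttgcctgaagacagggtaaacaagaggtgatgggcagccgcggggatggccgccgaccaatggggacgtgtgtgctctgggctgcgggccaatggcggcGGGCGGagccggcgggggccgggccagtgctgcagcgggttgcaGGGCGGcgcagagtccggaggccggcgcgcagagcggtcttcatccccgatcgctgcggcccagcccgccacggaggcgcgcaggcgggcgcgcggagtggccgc
The search for 3 motifs covered both strands. The GC box GGGCGG begins 214 and 188 bases before the start of Fgf4, and 215, 99 and 55 bases before that of Etv5. Of 32851 promoters of this length, 35.7% hold it. The TCF/LEF core CTTTG, found in 53.9% of all promoters, and the ETS core CCGGAA, found in 14.9%, are in neither of these windows. A promoter sequence was on hand for 5 of the 10 genes. Of the others among these, the windows of Fgfr2 and Spry2 hold CTTTG, that of Spry2 also holds CCGGAA, and that of Dusp6 holds none of the letters searched. The second window of Etv5 holds CTTTG alone. The letters describe the windows only, and the arrays did not measure binding. Sp5 itself had a signal of 48.8 in LIF, where it was not detected, and 809.5 with CHIR. Whether Sp5 acts on either promoter was not tested.

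Neither receptor was detected at the limit used. Fgfr1 (Entrez gene 14182, 8qA2), the main FGF receptor of mESCs, had a signal of 46.8 in LIF and 55.0 with CHIR, with detection p-values of 0.0683 and 0.0769. Like Fgfr2 below, Fgfr1 was taken as measured by several probes. Its signals lie above the dimmest detected signal of that kind of identifier (15.1 in LIF and 14.8 with CHIR). They lie near the dimmest among identifiers with 1 probe (51.9 and 47.1). No fold change was taken from them, as the detection p-values were over the limit. Fgfr2 (Entrez gene 14183, 7qF3), the receptor used by precursors of primitive endoderm and trophectoderm, had a signal of 354.8 in LIF and 132.3 with CHIR. Both are well above the dimmest detected signal among identifiers with 1 probe (51.9 on the LIF array, 47.1 on the CHIR array). Yet the detection p-values were 0.0225 and 0.0403, over the limit of 0.01. As these are not multiples of 1 over 936, the apparent number of negative controls, Fgfr2 was taken as measured by several probes with a combined p-value, and the signal of each probe is not known here.

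The plain ratio of these undetected signals of Fgfr2 was 2.68-fold lower with CHIR (log2 -1.42), a description of the values and not a measured change. No other member with signals above 0 on both arrays had so wide a ratio. At a detection p-value under 0.05, where 4.44% of 11702 identifiers were at least 1.5-fold lower, Fgfr2 would count as lower. Of 7 primitive endoderm markers, 1 was detected (Sox7, with a signal of 45.9 in LIF and 59.0 with CHIR). Gata4, Gata6 and Sox17 were not detected, and the summed signal of the list was 131.1 in LIF and 117.2 with CHIR. Of 6 trophoblast markers, 3 were detected, with a summed signal of 3256 in LIF and 3504 with CHIR, nearly all of it from Tfap2c (3175 and 3329), which mESCs also express. Cdx2 was not detected in LIF (23.6) and had 93.5 with CHIR. Krt7 was detected on both arrays, with 57.3 in LIF and 54.5 with CHIR, and Eomes, Elf5 and Hand1 were detected on neither. The part of these cells in the value of Fgfr2 was not tested.

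The inhibitors include 2 phosphatases of the MAP kinases and 2 Sprouty proteins. Dusp6 (Entrez gene 67603, 10qD1), the cytoplasmic phosphatase that removes the activating phosphates of ERK, had a signal of 2564 in LIF and 2211 with CHIR. This is 86.2% of the level in LIF (log2 fold change -0.21). Of 1719 identifiers with a brighter signal between 1000 and 3000, 11.2% were lower by as much or more. Dusp4 (Entrez gene 319520, 8qA4), a nuclear phosphatase of the same family, had 364.6 in LIF and 282.3 with CHIR, with detection p-values of 0.000336 and 0.00109. Its log2 fold change was -0.37, and 6.63% of identifiers between 300 and 1000 were lower by as much or more. Both phosphatases were thus lower with CHIR by less than 1.5-fold.

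Spry4 (Entrez gene 24066, 18qB3), a Sprouty protein that restrains Ras and Raf activation, had a signal of 701.4 in LIF and 680.3 with CHIR. These values are nearly equal (log2 fold change -0.04), and 43% of identifiers in its range of brightness were lower by as much or more. Spry2 (Entrez gene 24064, 14qE2.3), its better known relative, had signals below 0 on both arrays, -9.15 in LIF and -18.4 with CHIR, with detection p-values of 0.681 and 0.973. Its 1 probe was not above background, so no fold change was taken.

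Etv4 and Etv5, paralogous ETS-family transcription factors induced by FGF, were the detected members with a higher signal with CHIR. Etv4 (Entrez gene 18612, 11qD), also known as Pea3, had 4470 in LIF and 5619 with CHIR (log2 fold change 0.33). Of 1550 identifiers with a brighter signal of 3000 or more, 3.42% were higher by as much or more. Etv5, listed by its symbol without an Entrez number, had 5033 and 5436 (log2 fold change 0.11), and 21.2% of the same identifiers were higher by as much or more. Both were bright on each array, and neither reached 1.5-fold. Egr1 (Entrez gene 13653, 18qB1), a zinc finger factor and immediate early gene of ERK signaling, went the other way, with 771.4 in LIF and 614.2 with CHIR. Its log2 fold change was -0.33, and 8.38% of identifiers of its brightness were lower by as much or more. Dusp6, Dusp4, Spry4 and Egr1 thus had a lower signal with CHIR, and Etv4 and Etv5 a higher one. Each differed by less than 1.5-fold, and Spry4 hardly at all. With 1 array per condition these directions are not established.

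**Figure D2:**
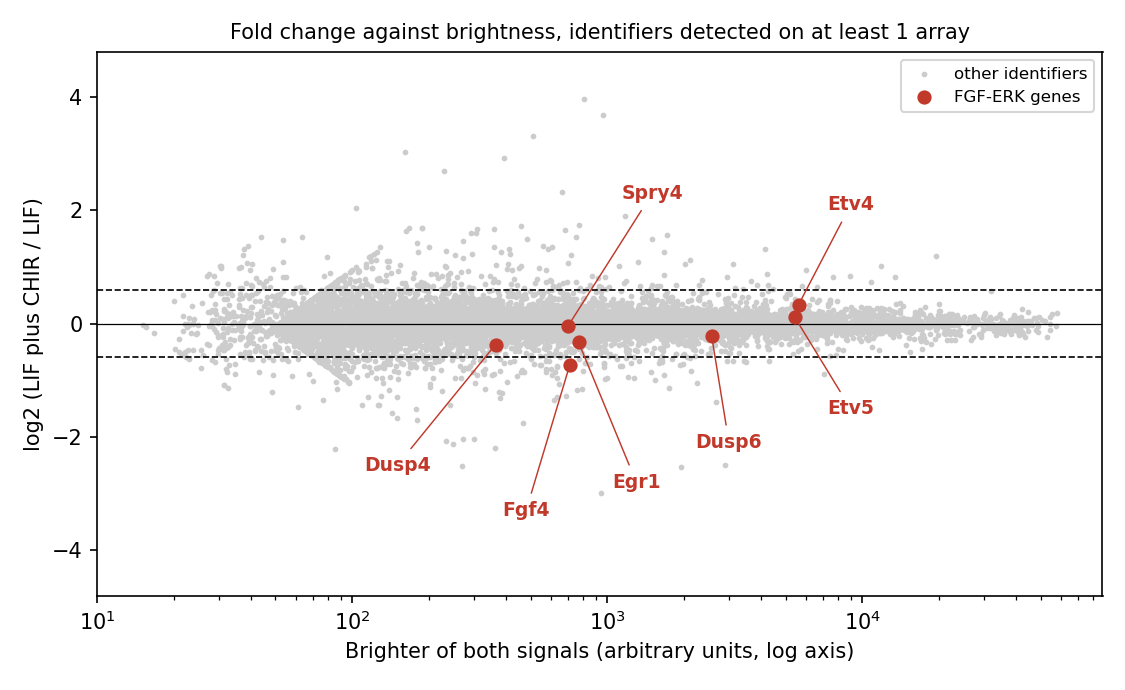
Log2 fold change of LIF plus CHIR over LIF against the brighter of both signals (arbitrary units, log axis) for the 9615 identifiers detected on at least 1 array (grey), with the 7 detected FGF–ERK genes in red and dashed lines at 1.5-fold. Fgf4 (-0.73) lies below the lower line and the other 6 genes lie between the lines, from -0.37 for Dusp4 to 0.33 for Etv4.

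The share of identifiers past 1.5-fold fell with brightness, and the members lie in different ranges. It was 10.3% in either direction where the brighter signal was under 100, 5.39% between 300 and 1000, 2.85% between 1000 and 3000, and 1.48% from 3000 upward. Fgf4, Dusp4, Spry4 and Egr1 lie in the range from 300 to 1000, Dusp6 in that from 1000 to 3000, and Etv4 and Etv5 above it. In the range of Etv4 and Etv5, 1.16% of identifiers were higher by 1.5-fold or more and 0.323% lower by as much.

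**Figure D3:**
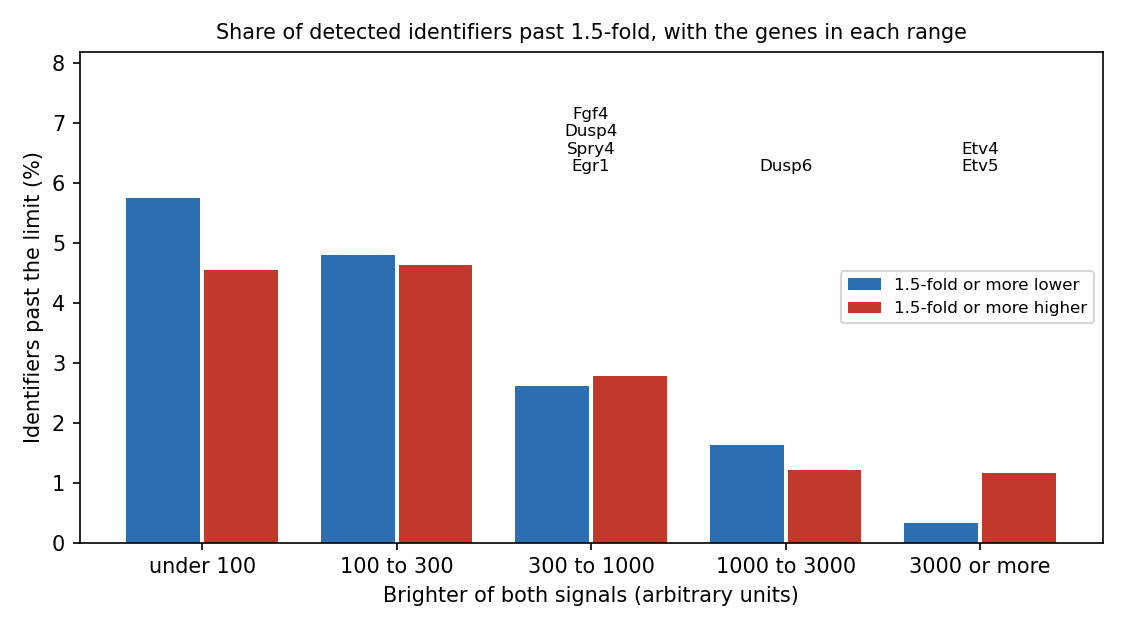
Share of detected identifiers (%) that were at least 1.5-fold lower (blue) or higher (red) with CHIR, by the brighter of both signals in arbitrary units, with the FGF–ERK genes of each range written above the bars. The share lower was 5.75% under 100, 2.61% in the range of Fgf4 and 0.323% in that of Etv4 and Etv5.

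Of 115 other genes of the pathway, 111 had a row, 54 were detected on at least 1 array, and 2 of these passed 1.5-fold, Fgf15 lower and Fgf10 higher. That is 3.7% of the 54, against 6.16% in either direction over all identifiers detected on at least 1 array. The median log2 fold change of the 54 was 0.03. The genes were divided by role into 7 lists.

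Both genes past the limit are ligands. Of the 21 other FGF genes, 4 were detected on at least 1 array. Fgf15, an endocrine-type FGF of the embryo, had a signal of 115.2 in LIF and 41.6 with CHIR, where its detection p-value was 0.0203. Set against the dimmest detected signal among identifiers with 1 probe on that array (47.1), it was at least 2.45-fold lower with CHIR (log2 -1.29). Fgf10 was not detected in LIF (69.0, detection p-value 0.0259) and was detected with CHIR (109.7), and the plain ratio against its undetected signal was 1.59-fold higher. Both genes are dim, with a brighter signal between 100 and 300, where 9.44% of detected identifiers passed 1.5-fold in either direction. Fgf17 had the highest signal of the list in LIF, with 463.7 and 585.0 with CHIR (log2 fold change 0.34). Fgf5, a gene of primed epiblast, was not detected, with 43.9 in LIF and 12.1 with CHIR.

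Of 15 further receptors and co-receptors, 7 were detected, 0 passed the limit, and the median log2 fold change was 0.18. Fgfr3 and Fgfr4 were not detected on either array. Gpc1, a heparan sulfate proteoglycan, had the highest signal in LIF, with 2414 and 2882 with CHIR (log2 fold change 0.26). Flrt3, a membrane protein that binds FGF receptors and is named here after its value was seen, came next to the limit with 334.9 in LIF and 498.8 with CHIR, 1.49-fold higher. Of 11 enzymes that make or trim heparan sulfate, the co-receptor of FGFs, 6 were detected and 0 passed. Ext1, which polymerizes the chain, had 1943 in LIF and 1564 with CHIR (log2 fold change -0.31).

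The detected genes of the core cascade each differed by less than 1.5-fold between the arrays. Of 12 adaptors and Ras genes, 8 were detected and their log2 fold changes lay between -0.31 and 0.37. The docking protein gene Gab1 was brightest in LIF, with 11070 there and 10382 with CHIR. Of 12 kinase genes, 8 were detected, with log2 fold changes between -0.18 and 0.28. The adaptor list genes Grb2, Plcg1, Sos1 and Sos2 and the kinase list genes Braf, Ksr1, Map2k1 and Lamtor3 were detected on neither array. Mapk3 (195.3 and 204.9) and Map2k2 (2583 and 2728), which encodes a MEK, had nearly equal signals on both arrays. Map2k1, the other MEK gene, had signals below 0. Rps6ka1, a kinase activated by ERK, had 5487 in LIF and 5455 with CHIR.

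Of 20 further inhibitors of the pathway, 13 were detected and 0 passed the limit. Of the 13, 10 had a higher signal with CHIR (median log2 fold change 0.13), against 49.2% of all detected identifiers. This count describes the list alone, which leaves out the members. Their detected inhibitors Dusp6, Dusp4 and Spry4 had a lower signal (log2 fold changes -0.21, -0.37 and -0.04). The lowest log2 fold change of the list was that of Dusp2 (-0.51), detected on both arrays with 59.8 in LIF and 42.0 with CHIR. Dusp8 was detected in LIF (55.3) and not with CHIR (30.7), where its signal was raised to 47.1. Its plain ratio was 1.80-fold lower. Dusp1, an immediate early phosphatase, had 4741 in LIF and 4878 with CHIR. Of 24 nuclear effectors and early targets, 8 were detected and 0 passed, with a median log2 fold change of -0.13. Ccnd1, the cyclin D1 gene, had 3923 in LIF and 4347 with CHIR (log2 fold change 0.15). Fos and Egr2, immediate early genes like Egr1, were not detected on either array.

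**Figure D4:**
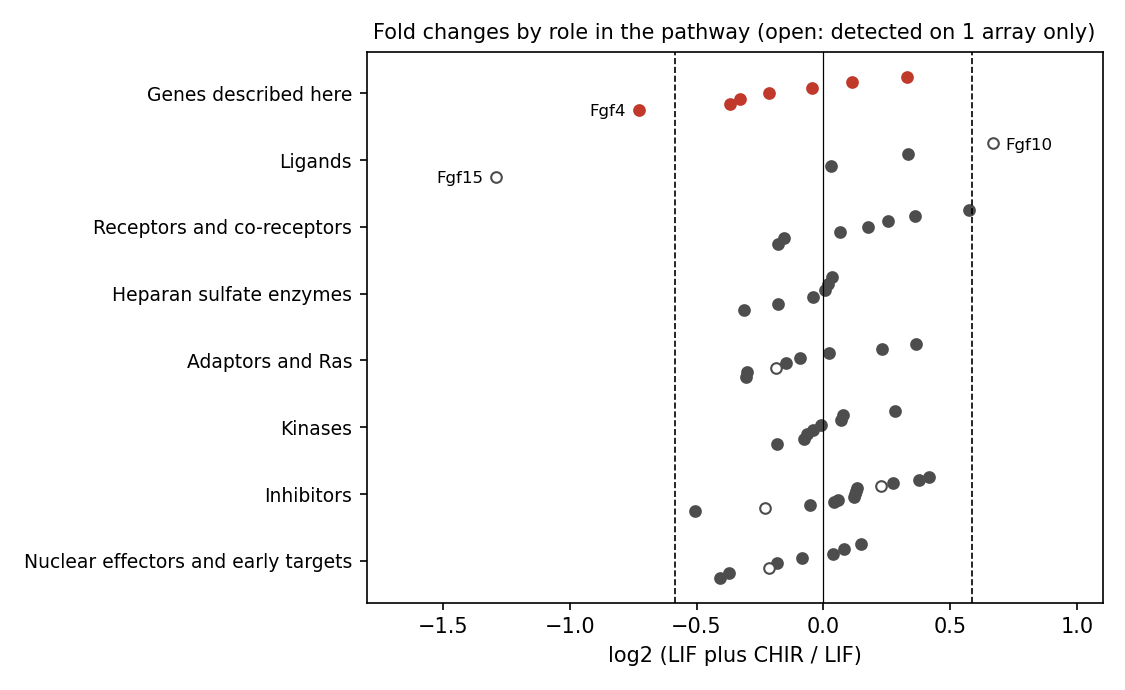
Log2 fold change of LIF plus CHIR over LIF for the 7 detected FGF–ERK genes (red) and the 54 detected other genes of the pathway (grey) by role, with open symbols for genes detected on 1 array and dashed lines at 1.5-fold. Fgf4 and Fgf15 lie below the lower line and Fgf10 above the upper one, and the lists other than ligands hold no gene past the limit.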

How the data were processed

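Illumina mouse beadchips measured RNA of mESCs treated with LIF alone or with LIF plus CHIR, 1 array each, assigned from the labels. The deposited signal intensity is linear, already background subtracted and nearly equal in distribution between the arrays; the software and the normalization are not given in the sources used here. Each deposited signal comes with a detection p-value from the negative control beads. Values of the 11702 identifiers in the shorter table equal those in the longer one, and 0 differed. Where both p-values were multiples of 1 over 936 (within 0.001), an identifier was treated as having 1 probe (23344), otherwise several (7430), with combined p-values.

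Log2 fold changes (CHIR array over LIF array) were taken in Python 3.11.15 (pandas 2.3.3, numpy 2.4.6, matplotlib 3.10.9 for plots), for identifiers detected at a p-value of 0.01 on 1 array or both. Signals under the lowest detected signal of the same array and kind of identifier (1 probe: 51.9 in LIF and 47.1 with CHIR; several: 15.1 and 14.8) were raised to it, and the fold is then a lower bound. The limit was 1.5-fold. The calculation was run on simulated data with changes far past the limit in detected identifiers that were not dim. That run says nothing about changes near the limit or about dim signals. Of the 111 pathway genes found, 109 were matched by symbol, 1 by Entrez number and 1 by an older symbol, through the RefSeq table of GRCm38.p6. The files name no build, so coordinates are given only for the RefSeq promoters, in GRCm38.p6.

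The members and lists were chosen with earlier results of these data known. Named were all members, pathway genes past the limit, the brightest of each list in LIF, and Axin2 and Sp5. Markers came from the cell type lists. Others (Fgfr3, Fgfr4, Fgf5, Flrt3, Dusp2, Dusp8, Mapk3, Map2k2, Fos and Egr2, and the genes of the closing observations) were picked after their values were seen. The undetected genes of the core cascade were also named after their values were seen. The motifs were chosen after the promoter sequences were read. Alternatives, including normexp correction (limma 3.58.1 in R 4.3.3, offset 16), are given in the closing section. 1 result is not reported here. The number of arrays limits the precision.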

Additional observations from a re-analysis of the deposited data

How the results depend on the processing

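No paired analysis was possible because the design holds only 1 array of each kind. Quantile normalization, scaling to equal medians and normexp correction were the alternatives that could move the log2 fold changes of the 7 detected members. The other alternatives left these values unchanged by construction, so the agreement there carries no information. Under those that could move them, the 7 kept their direction. The deposited signals were already nearly equal in distribution, so these alternatives moved the values little. The kept directions therefore say little about whether the differences would recur. Fgf4 lay between -0.73 and -0.71, Dusp4 between -0.38 and -0.35, and Etv4 between 0.32 and 0.33. The count of members at least 1.5-fold lower was 1. It was 2 where a detection p-value of 0.05 sufficed and 2 with detection by signal, since Fgfr2 then enters, and 0 at a limit of 2-fold. Detection by signal was added after seeing the data, the limit being the dimmest detected signal among identifiers with 1 probe. Fgfr1 also enters by signal, without passing 1.5-fold. The plain log2 ratio of Fgfr2 lay between -1.43 and -1.33 under quantile normalization, scaling to equal medians and normexp correction. Over all identifiers, 288 were higher and 304 lower, against 479 and 519 at a detection p-value under 0.05 and 78 and 54 at 2-fold. Among other pathway genes, the count higher fell from 1 to 0 under normexp correction, with detection on both arrays and at 2-fold. The count lower was 1, but 2 under normexp correction, at a detection p-value under 0.05, with 1 minimum signal for all identifiers and with no minimum signal, where Dusp8 joins Fgf15, and 0 with detection on both arrays. Quantile normalization and scaling to equal medians moved none of these counts past 1.5 times. The shorter table, which holds the same values, could not move them.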

Other observations

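Several genes of the pathway resembled Fgfr2 in having a sizeable signal but a detection p-value over 0.01. They were named after their values were seen, and none of them enters the counts of genes past 1.5-fold. Gpc3, a glypican, had a signal of 707.1 in LIF and 756.7 in LIF plus CHIR, with detection p-values of 0.0501 and 0.136. Sulf2, which trims heparan sulfate, had 482.3 and 524.0, with 0.0752 and 0.224. Hs6st1, which adds sulfate to the same chains, had 594.0 in LIF and 416.8 in LIF plus CHIR, a plain ratio 1.43-fold lower with CHIR, with detection p-values of 0.0299 and 0.079. Myc had 137.4 and 112.8, with 0.469 and 0.338. Sox2, a pluripotency gene that acts on the Fgf4 enhancer, had 441.2 and 400.2, with 0.0503 and 0.276. Each of these genes was treated as measured by several probes. Of 2333 such identifiers with a brighter signal of at least 100, 46.4% were not detected on either array. Among 6539 identifiers with 1 probe at that brightness, the share was 0%. That share was fixed in advance, since with 1 probe a signal of 100 exceeds the dimmest detected one (51.9 in LIF and 47.1 with CHIR). Why the combined p-values are high at these signals was not tested.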
